A study of Mus musculus with 6 samples.

Results

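Synaptonemal complex and meiotic recombination genes were examined in fully-grown oocytes (FGOs) at the germinal vesicle (GV) stage, as 9 genes chosen by name: Sycp1, Syce1, Sycp2, Sycp3, Hormad1, Dmc1, Msh4, Msh5 and Mlh3. All 9 had a row among the 24255 genes of the deposited table. RNA-Seq had been carried out on 6 libraries of 20 oocytes each, 3 from wild-type (WT) mice and 3 from Lsm14b-KO mice. The Lsm14b-KO mice were homozygous for Lsm14b tm1a, a reporter-tagged insertion allele on the C57BL/6J background, and lack LSM14B, an RNA-binding protein of the oocyte cytoplasm, in every cell rather than in the oocyte alone. Mice of both groups had received PMSG, a gonadotropin that makes follicles grow, at 5 IU per mouse 46 h before collection. The labels do not say whether the 3 libraries of a group came from separate animals, so p-values measure only the spread between these libraries, which may be technical.

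The synaptonemal complex is a protein ladder that holds homologous chromosomes together during meiotic prophase. Its rungs are transverse filaments joined at a central element, its rails are the chromosome axes, and on this scaffold programmed DNA breaks are repaired by strand exchange, some of them as crossovers. In female mice these steps take place in the fetal ovary, so oocytes that have grown to full size after birth passed through them long before and wait in arrest with a large store of maternal mRNA.

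Values are FPKM, fragments scaled by transcript length and library size, which can be compared between genes because transcript length is divided out. Tests used limma on log2(FPKM + 1) over the 6398 genes that reached 1 FPKM in at least 1 library, and a gene passed at an adjusted p under 0.05. Lsm14b itself stood at 2.77, 3.98 and 1.72 FPKM in WT and at 0, 0 and 0.102 FPKM in Lsm14b-KO. The groups therefore went with their labels (limma log2 difference -1.85, SE 0.25, adjusted p = 0.0038). Lsm14b reached 1 FPKM only in WT, so it was tested only through that group, and its p-value carries that selection. The 12 oocyte marker genes were above 0 in all 6 libraries, with summed levels of 44682 to 56780 FPKM in WT and 30606 to 74971 FPKM in Lsm14b-KO. Most of each sum was Dppa3, at 19433 to 63633 FPKM over the 6 libraries. Other oocyte markers were lower, such as Zp1 at 3.29 to 15.3 FPKM. Kit was higher in Lsm14b-KO, at 4.20, 3.46 and 4.58 FPKM in WT and 7.26, 10.6 and 6.73 FPKM in Lsm14b-KO. Nobox was also higher, at 10.5, 10.5 and 16.5 FPKM in WT and 46.3, 98.9 and 52.3 FPKM in Lsm14b-KO. For the remaining oocyte markers the groups overlapped. The 14 cumulus and granulosa cell markers summed to 10.1 to 13.6 FPKM in WT and 6.26 to 10.4 FPKM in Lsm14b-KO. Amh, Foxl2 and Inhba were listed at 0 throughout, while Cyp19a1 made up most of the WT sum. Cyp19a1 was lower in Lsm14b-KO, at 11.5, 8.26 and 10.5 FPKM in WT and 5.47, 3.00 and 5.76 FPKM in Lsm14b-KO. Fshr was higher, at 1.68, 0.526 and 0.349 FPKM in WT and 2.07, 1.91 and 1.82 FPKM in Lsm14b-KO. Whether granulosa cell RNA was carried over was not tested. Of 6 leukocyte markers 5 were at 0 in every library, the list summing to at most 0.673 FPKM in WT and 0.728 FPKM in Lsm14b-KO, and all 6 red blood cell markers in the table were at 0. Between bulk samples, fewer cells of a type and less RNA per cell cannot be told apart.

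Sycp3 and Sycp1 were the 2 of the 9 genes that reached 1 FPKM, and they lay far apart in level. Sycp3 averaged 124.9 FPKM over the 6 libraries, Sycp1 2.04 FPKM, and the other 7 stayed under 1 FPKM in every library. In WT, Sycp1 stood at 3.48 ± 1.30 FPKM (SD, n = 3) and Sycp3 at 49.4 ± 14.3 FPKM (SD, n = 3). The sequences just upstream of these genes are shown because the CACGTG E-box, a palindromic motif, occurs before both of them and before Hormad1. They are the 250 bases that precede the RefSeq start (GRCm38.p6, 5′ to 3′ along the gene), with CACGTG and, in Hormad1, GGCGGGAA in capitals. Sycp1 lies on the minus strand (chr3:102936101-102936350), Sycp3 on the plus strand (chr10:88459337-88459586) and Hormad1 on the plus strand (chr3:95559427-95559676, the more upstream of its RefSeq starts).
Sycp1: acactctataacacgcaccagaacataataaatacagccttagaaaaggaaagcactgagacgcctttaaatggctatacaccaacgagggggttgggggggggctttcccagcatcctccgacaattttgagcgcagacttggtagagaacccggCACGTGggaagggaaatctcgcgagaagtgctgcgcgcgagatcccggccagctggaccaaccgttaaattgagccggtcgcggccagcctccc
Sycp3: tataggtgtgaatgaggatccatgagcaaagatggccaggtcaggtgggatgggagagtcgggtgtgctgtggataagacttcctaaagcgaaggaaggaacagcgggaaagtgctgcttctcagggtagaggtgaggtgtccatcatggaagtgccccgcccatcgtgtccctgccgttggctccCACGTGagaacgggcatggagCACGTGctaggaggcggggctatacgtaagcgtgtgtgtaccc
Hormad1: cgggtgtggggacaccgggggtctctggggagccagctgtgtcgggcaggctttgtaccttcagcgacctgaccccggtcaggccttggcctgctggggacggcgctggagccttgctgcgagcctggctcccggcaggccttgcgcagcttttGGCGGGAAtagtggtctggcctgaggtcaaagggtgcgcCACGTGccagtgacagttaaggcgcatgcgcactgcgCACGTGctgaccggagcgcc

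Searched on both strands, CACGTG occurred upstream of 3 of the 9 genes, against 6.86% of 27025 genes with 250 bases of sequence and 8 of 49 (16.3%) genes of the meiotic prophase list described further on. GGCGGGAA, an E2F6-type motif, occurred upstream of Hormad1 and Msh5, against 2.13% of all genes and 8.16% of the prophase list, and CNCCTCAG, a STRA8-type motif, upstream of Msh5 alone, against 7.39% of all genes and 14.3% of the prophase list. Each match describes the letters in this window and nothing about binding.

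Sycp1 encodes the transverse filament protein, the rungs of the ladder (chr3:102818499-102936100, minus strand, GRCm38). Its levels were 4.09, 4.35 and 1.99 FPKM in WT and 1.54, 0.0404 and 0.254 FPKM in Lsm14b-KO. Every Lsm14b-KO library was below every WT library, with Lsm14b-KO replicate 1 close to the lowest WT library and Lsm14b-KO replicate 2 near 0. Sycp1 fell by 1.54 on the log2 scale (SE 0.38, 95% interval -2.41 to -0.67, limma adjusted p = 0.0271). Of the 9 genes 2 were tested, and Sycp1 was the 1 that passed, beside 21.6% of all 6398 tested genes called in either direction. An exact two-sided permutation test of Sycp1 gave p = 0.1, the smallest that 3 against 3 libraries can give. The call was lost without WT replicate 1 (adjusted p = 0.113), WT replicate 2 (0.107), WT replicate 3 (0.0537), Lsm14b-KO replicate 2 (0.0740) or Lsm14b-KO replicate 3 (0.114) in limma, and without the filter on low values (0.0742). With smaller pseudocounts the log2 difference of Sycp1 was -2.97 (0.1, limma adjusted p = 0.0426) and -3.59 (0.01, adjusted p = 0.0666).

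Syce1, a protein of the central element where the rungs meet (chr7:140777229-140787852, minus strand), was barely detected. It had 0, 0.183 and 0 FPKM in WT and 0.157, 0 and 0.192 FPKM in Lsm14b-KO, with 1 library of WT and 2 libraries of Lsm14b-KO above 0. The groups overlapped. These values rest on about 1 fragment in all of WT and 3 in all of Lsm14b-KO, so no difference was detectable at this depth.

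Sycp3, the core protein of the chromosome axis (chr10:88459569-88473236, plus strand), was the most abundant of the 9 genes in every library. Its levels were 49.9, 63.4 and 34.8 FPKM in WT and 448, 46.9 and 107 FPKM in Lsm14b-KO. Lsm14b-KO replicate 1 was 7.06 times the highest WT library and 9.55 times Lsm14b-KO replicate 2, which fell within the WT range, so the groups overlapped. On the log2 scale Sycp3 was 1.43 higher in Lsm14b-KO (SE 0.74, 95% interval -0.26 to 3.13), which did not pass (limma adjusted p = 0.179). An exact two-sided permutation test gave p = 0.3. Without Lsm14b-KO replicate 1 the difference was 0.55 (limma adjusted p = 0.285), and without Lsm14b-KO replicate 2 it was 2.17 (adjusted p = 0.0567).

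Scaling changed this result. FPKM summed to 1244182, 1171905 and 1141324 in WT and 1029728, 564671 and 676656 in Lsm14b-KO, so dividing each library by its own sum (TPM) raised the last 2 Lsm14b-KO libraries. In TPM, Sycp3 stood at 40.1, 54.1 and 30.5 in WT and at 435, 83.0 and 158 in Lsm14b-KO, and the groups no longer overlapped. The log2 difference was then 2.12 and passed in limma (adjusted p = 0.0362), as it did after a correction for transcript length and GC content (2.26, adjusted p = 0.0160), while quantile normalization gave 1.95 (adjusted p = 0.0587). TPM scaling also moved the median log2 difference of all tested genes up by 0.475, quantile normalization by 0.144 and the length and GC correction by 0.177. Sycp1 stayed lower and past the threshold under all of these scalings, at log2 differences of -1.15 to -1.45. Chpt1, a gene on the opposite strand that spans Sycp3 and shares sequence with it, was at most 0.316 FPKM in any library, and whether the counting used strand is not given in the sources used here.

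**Figure D1:**
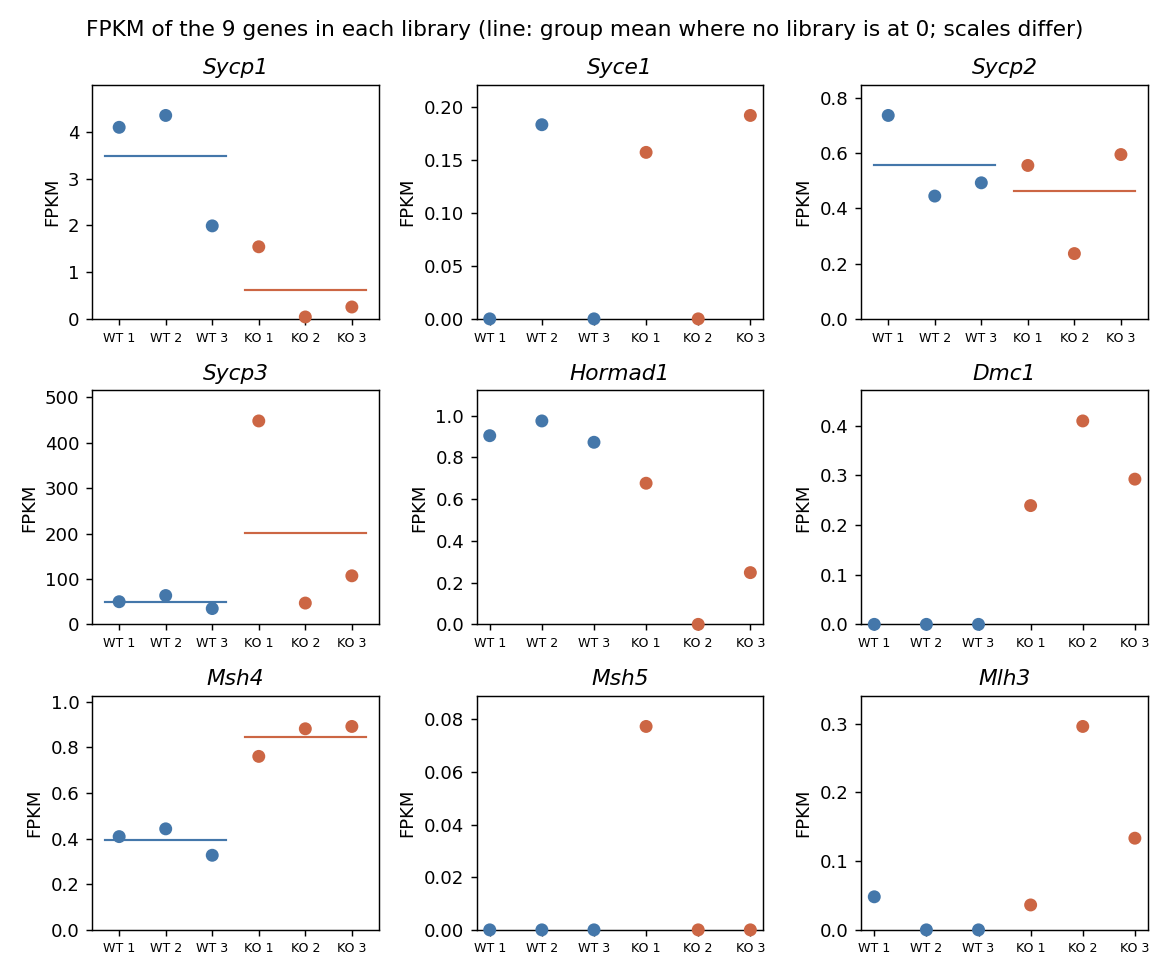
FPKM (vertical axis, linear, scales differ) of each of the 9 genes in the 3 WT and 3 Lsm14b-KO libraries, with points for libraries and lines for group means where no library is at 0. Sycp1 was at most 1.54 FPKM in Lsm14b-KO and at least 1.99 FPKM in WT, and 1 Lsm14b-KO library of Sycp3 stood at 448 FPKM.

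**Figure D2:**
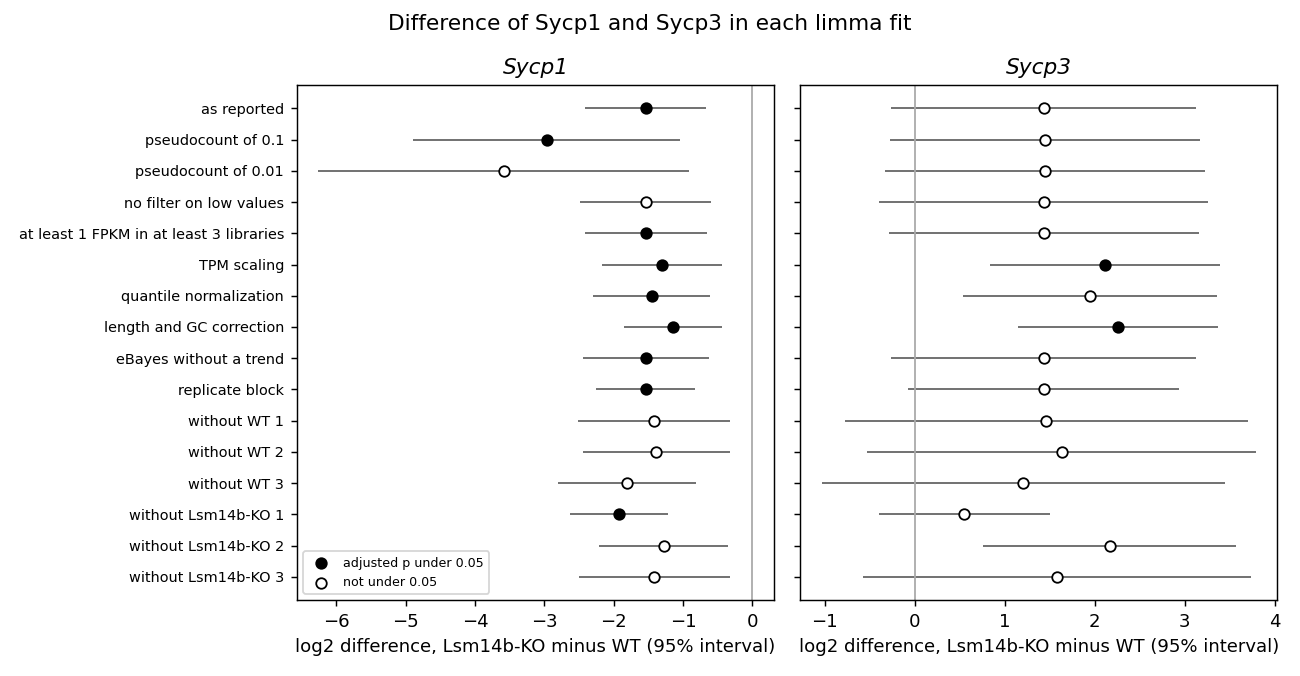
Log2 difference (Lsm14b-KO minus WT, horizontal axis) of Sycp1 and Sycp3 in each limma fit, with 95% intervals as bars and filled points where the adjusted p was under 0.05. Sycp1 was negative and Sycp3 positive in every fit, and 2 fits of Sycp3, TPM scaling and the length and GC correction, passed.

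Sycp2, the partner of SYCP3 in the axis (chr2:178345293-178407685, minus strand), was low in both genotypes. Its levels were 0.737, 0.445 and 0.493 FPKM in WT and 0.556, 0.237 and 0.595 FPKM in Lsm14b-KO, with overlapping groups. Without the filter, the only setting in which the low genes were tested, its limma log2 difference was -0.10 (95% interval -0.50 to 0.31, adjusted p = 0.743). Hormad1, which binds axes that have not yet synapsed (chr3:95559677-95587671, plus strand), had levels of 0.904, 0.975 and 0.872 FPKM in WT and at 0.676, 0 and 0.248 FPKM in Lsm14b-KO. All 3 Lsm14b-KO libraries were below the WT libraries, on about 13 fragments in WT and 7 in Lsm14b-KO. The difference without the filter was -0.58 and did not pass (limma adjusted p = 0.167). A near-identical copy, Gm15529, could share reads with Hormad1.

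Dmc1, the recombinase specific to meiosis that carries out strand exchange (chr15:79561497-79605109, minus strand), was listed at 0 in all 3 WT libraries and at 0.239, 0.410 and 0.292 FPKM in Lsm14b-KO. It was called higher in the fit without the filter (limma log2 difference 0.39, 95% interval 0.23 to 0.56, adjusted p = 0.0294), where 5.03% of 14325 genes were called. With all 3 WT values at 0, WT adds no spread to this interval, which leaves out the counting error of a 0. That fit kept genes above 0 in at least 1 library, so Dmc1 entered it only through Lsm14b-KO. The p-value of Dmc1 carries that selection. Sycp1 was not called in that fit, so that the count of 1 gene called of 9 refers to Dmc1 there. The Lsm14b-KO values rest on about 13 fragments in all. A count of 0 allows up to 3 fragments in a library, or 0.342 to 0.391 FPKM in WT, and 1 of the 3 Lsm14b-KO libraries was above that limit. Of the 7927 genes above 0 but under 1 FPKM in all 6 libraries, 232 (2.93%) were like Dmc1 at 0 in every WT library and above 0 in every Lsm14b-KO library, and 36 showed the reverse.

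Relative depth, inferred from FPKM values and not from read counts, moved with genotype and bears on all 7 low genes. A scaling of the libraries to each other would change this inferred depth as well. The steps between low FPKM values placed the relative depth of the libraries at 1 to 1.15 in WT and 1.36 to 2.204 in Lsm14b-KO, with WT replicate 1 set to 1; 79.1 to 81.2% of the values under 4.5 fragments came within 0.15 of a whole number. These fragment numbers are approximate and cover counting error only. The part of depth in the differences of the low genes was not tested.

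Msh4 and Msh5 form a clamp that stabilises recombination intermediates on the way to crossovers. Msh4 (chr3:153857149-153906138, minus strand) had levels of 0.409, 0.443 and 0.327 FPKM in WT and at 0.760, 0.881 and 0.891 FPKM in Lsm14b-KO. The groups did not overlap, at 0.393 ± 0.060 FPKM in WT and 0.844 ± 0.073 FPKM in Lsm14b-KO (SD, n = 3), a ratio of 2.15. These values rest on about 4 to 6 fragments a library in WT and 12 to 24 in Lsm14b-KO. The small SDs therefore do not measure the counting error. The log2 difference without the filter was 0.41 (95% interval 0.05 to 0.76) and did not pass (limma adjusted p = 0.162). Msh5 (chr17:35028605-35046745, minus strand) was listed at 0 in 5 libraries and at 0.0773 FPKM in Lsm14b-KO replicate 1, about 1 fragment. Mlh3, a MutL protein that acts at crossover sites (chr12:85234520-85270599, minus strand), had levels of 0.0481, 0 and 0 FPKM in WT and at 0.0362, 0.296 and 0.133 FPKM in Lsm14b-KO, with overlapping groups. Across the 9 genes, the groups did not overlap for 4, Sycp1 and Hormad1 lower and Dmc1 and Msh4 higher in Lsm14b-KO, read against 28.4% of the 14325 genes above 0. Among genes under 1 FPKM in all libraries, 863 had all Lsm14b-KO values above all WT values and 317 had them below.

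**Figure D3:**
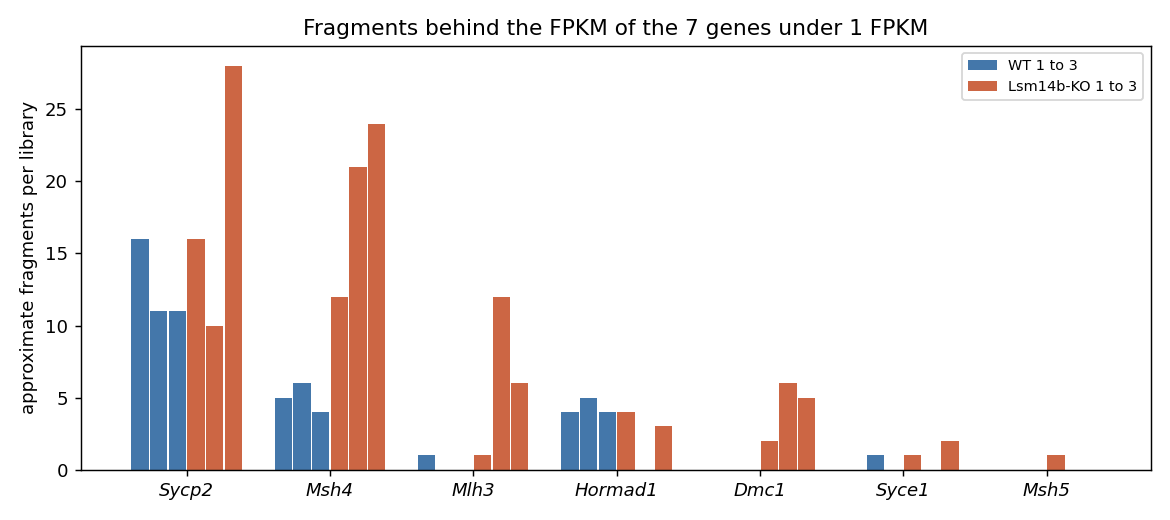
Approximate number of sequenced fragments (vertical axis) behind the FPKM of the 7 genes under 1 FPKM, with a bar for each of the 3 WT and 3 Lsm14b-KO libraries. The tallest bar is 28 fragments, Sycp2 in Lsm14b-KO replicate 3, and Msh5 has 1 fragment in all.

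The other genes of meiotic prophase were taken from a list of 67, of which 60 were in the table, 8 were at 0 in every library and 24 were tested. Of the 24, 1 rose and 3 fell, 16.7% called against 21.6% of all tested genes, and their median log2 difference was -0.016 against -0.075 over all tested genes. By role, the calls were 1 of 2 in the synaptonemal complex (lower), 1 of 10 in strand exchange (lower) and 2 of 7 in the group of crossover and mismatch repair genes (1 lower, Tex11, and 1 higher, Msh3, known for mismatch repair). The tested genes of the axis (1), double-strand break formation (2) and telomere attachment (2) did not pass, and none of the 3 meiotic entry genes reached the filter. The count of 4 moved when libraries were left out. It was 1 without WT replicate 1, WT replicate 2, WT replicate 3 or Lsm14b-KO replicate 3. Of all 6398 tested genes, 396, 397, 462 and 315 passed in those fits, in that order. Without Lsm14b-KO replicate 1 the count was 14 of the 24, beside 2898 of all tested genes.

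Tex12, a central element protein, was at 240, 218 and 216 FPKM in WT and 80.1, 18.7 and 38.7 FPKM in Lsm14b-KO. It fell by 2.50 on the log2 scale (limma adjusted p = 0.0136), with all Lsm14b-KO libraries well below WT. Syce2, its partner in the central element and the most abundant gene of that role, was at 786, 683 and 602 FPKM in WT and 679, 195 and 311 FPKM in Lsm14b-KO. Lsm14b-KO replicate 1 lay within the WT range, and the log2 difference of -0.99 did not pass (limma adjusted p = 0.148). Syce1, of the same central element, was at most 0.192 FPKM.

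Psmc3ip (HOP2), which stimulates strand exchange by DMC1, was at 9.33, 9.92 and 12.7 FPKM in WT and 5.04, 1.29 and 2.10 FPKM in Lsm14b-KO. It fell by 1.72 on the log2 scale (limma adjusted p = 0.0163). The most abundant strand exchange gene was Sfr1, at 2142, 2001 and 1888 FPKM in WT and 2101, 1693 and 1876 FPKM in Lsm14b-KO, where the groups overlapped (log2 difference -0.09, limma adjusted p = 0.801), and its sign turned under TPM scaling, quantile normalization and the length and GC correction.

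Tex11, an X-linked gene needed for crossovers and the most abundant of its group, was at 17.6, 18.9 and 12.7 FPKM in WT and 6.23, 0.855 and 1.26 FPKM in Lsm14b-KO. It fell by 2.46 on the log2 scale (limma adjusted p = 0.0138). Msh3, a MutS protein of mismatch repair in the same family as Msh4, was at 2.18, 2.39 and 2.05 FPKM in WT and 6.77, 11.0 and 10.5 FPKM in Lsm14b-KO. It rose by 1.67 on the log2 scale (limma adjusted p = 0.0042) and was called in all 15 alternative settings, with no Lsm14b-KO library near the WT range. For Tex12, Tex11 and Psmc3ip the call was lost without any 1 of the 3 WT libraries or Lsm14b-KO replicate 3, at limma adjusted p of 0.0561 to 0.0836.

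Mei4, needed for meiotic DNA breaks, was at 282, 210 and 161 FPKM in WT and 163, 20.9 and 37.5 FPKM in Lsm14b-KO, and its log2 difference of -2.04 did not pass (limma adjusted p = 0.0662). The leading genes of the remaining roles were low. Trip13, an ATPase that removes HORMA proteins from axes, had levels of 0, 0.439 and 0.365 FPKM in WT and 1.41, 0.580 and 1.33 FPKM in Lsm14b-KO. All Lsm14b-KO libraries were above the WT libraries, but the log2 difference of 0.72 did not pass (limma adjusted p = 0.0753). Trip13 passed under TPM scaling (0.99, limma adjusted p = 0.0362) and without Lsm14b-KO replicate 2 (0.92, adjusted p = 0.0493). It reached 1 FPKM only in Lsm14b-KO replicates 1 and 3. It was therefore tested only through the group where it was higher, and its p-values carry that selection. Sun1, which anchors telomeres at the nuclear envelope, averaged 0.924 FPKM over the 6 libraries, and Ythdc2, an RNA helicase needed at meiotic entry, 0.399 FPKM.

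**Figure D4:**
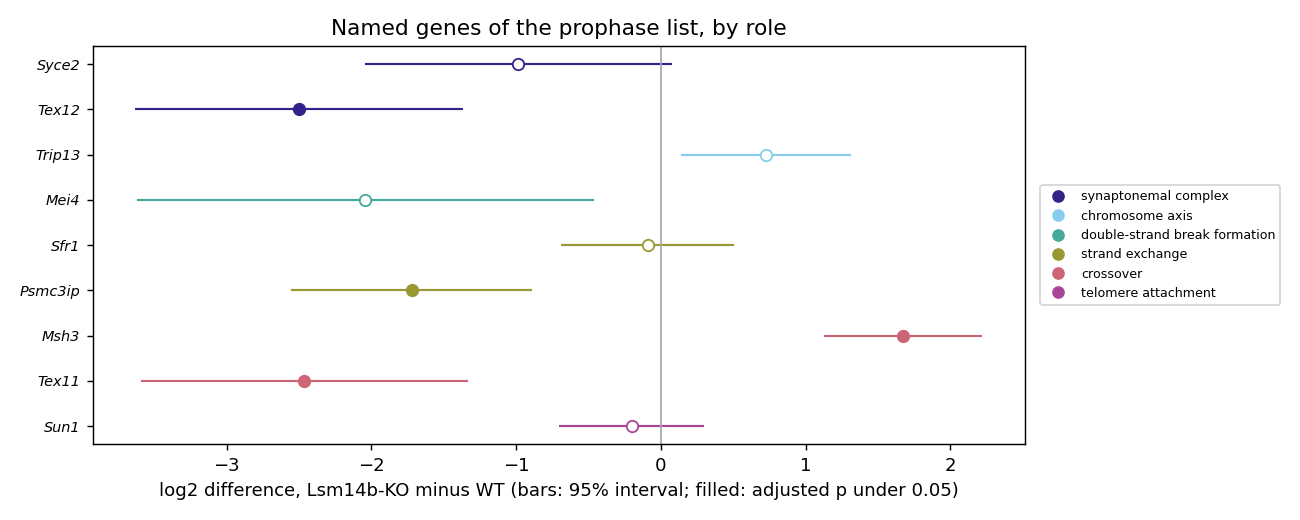
Log2 difference (Lsm14b-KO minus WT, horizontal axis) of the 9 tested genes of the prophase list that are named here, coloured by role, with 95% intervals as bars and filled points where the limma adjusted p was under 0.05. Tex12, Tex11 and Psmc3ip are filled on the left, at -2.50, -2.46 and -1.72, and Msh3 on the right, at 1.67.

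The genes most like Sycp3 and Sycp1 over the 6 libraries were found by the root mean square (RMS) difference of log2(FPKM + 1) after each gene was centred on its own mean. For Sycp3, whose own RMS around its mean was 1.21, they were Ptpn22 (0.35) and Akr1c21 (0.36). Ptpn22 was at 5.85, 7.51 and 4.99 FPKM in WT and 36.6, 7.15 and 11.1 FPKM in Lsm14b-KO, again highest in Lsm14b-KO replicate 1. That library was the highest of the 6 for 15.9% of tested genes. For Sycp1, whose own RMS was 0.90, the closest were Pnrc1 (0.074) and Gm2560 (0.076). Pnrc1 was at 35.7, 34.2 and 20.3 FPKM in WT and 15.1, 6.02 and 8.10 FPKM in Lsm14b-KO, with WT replicate 3 the lowest of its group as for Sycp1. Lsm14b-KO replicate 2, the lowest library for both, was lowest or tied lowest for at least 31.6% of tested genes. The added 1 compresses the low Lsm14b-KO values of Sycp1, so this likeness is not one of fold changes.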

How the data were processed

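RNA-Seq libraries were made by the study from 20 oocytes each after Smart-seq2 amplification. The authors deposited FPKM per gene from Cufflinks 2.2.1 after TopHat2 2.0.13 alignment to mm10, per the labels. Cuffdiff and Cuffnorm are also named among the tools, and whether they scaled the libraries to each other was not tested. The deposited p-values and q-values of their own comparison were not used. A 0 can be a failed estimate, as 13 of the 85 genes for ribosomal proteins had a 0 in some library, so no mean is given for genes with a 0.

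Here log2(FPKM + 1) was tested with limma 3.58.1 (R 4.3.3, trended eBayes, Benjamini-Hochberg adjustment) over genes with at least 1 FPKM in 1 library or more, by genotype in all 6 libraries. The method was tested on simulated data with changes placed only in genes of higher level. That range holds Sycp3 but not Sycp1 or the genes under 1 FPKM. Alternatives covered pseudocount, filter, scaling, variance trend, replicate block and each library left out. Exact permutation tests used scipy 1.17.1 and copies were found with blastn 2.17.0 (95% identity over 200 nt). Coordinates are from GENCODE vM21.

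The 9 genes and the lists were chosen with earlier results of these data known. All 9 are given. From the prophase list, the 5 largest rises and falls among genes past the threshold and the most abundant gene of each role were named. Some genes of the list are not reported here singly.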

Additional observations from a re-analysis of the deposited data

How the results depend on the processing

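With 3 libraries a group and few fragments behind 7 of the 9 genes, small differences could not be seen. Of the 9 genes 2 were tested in the fits that follow. Of these, 1 passed as reported, 0 with a pseudocount of 0.01, 2 with TPM scaling and 2 with the length and GC correction. Of all 6398 tested genes, 1383, 1130, 1319 and 1453 passed in the same order of fits. When a library was left out, 0 to 1 of the 9 genes passed. It was 0 without WT replicate 1, 2 or 3 or Lsm14b-KO replicate 2 or 3, and 1 without Lsm14b-KO replicate 1. Over all tested genes 1383 passed, 720 without the filter on low values, and 315 to 2898 when a library was left out, the highest without Lsm14b-KO replicate 1. The prophase list gave 4 of 24 tested genes, and 1 to 14 when a library was left out. The share of calls that were higher in Lsm14b-KO was 29.5%, against 63.2% with TPM scaling, 42.4% with quantile normalization and 45.1% with the length and GC correction. Sfr1 turned to 0.60 with TPM scaling, 0.64 with quantile normalization and 0.28 with the length and GC correction, and Sun1 to 0.17 with TPM scaling; these scalings raise the median of all genes. Lsm14b stayed past the threshold in all 15 alternatives.

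The labels do not say whether libraries with the same number were collected as pairs. Their deviations from the group means showed little in common (correlations 0.19, -0.13 and 0.018), which cannot settle it. The fit as reported treats them as unpaired. With a replicate block 1244 genes passed, with 1 of the 9 genes (Sycp1, adjusted p = 0.0191 in limma) and 5 of the prophase list among them, Mei4 added.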
